A study of Mus musculus with 2 samples.

Results

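The interferon-stimulated genes described here are 49 genes of a fixed list, all 49 of which were present among the 16819 genes of the deposited gene expression matrix of CD45+ cells from dorsal root ganglia (DRG), the clusters of sensory neuron cell bodies beside the spinal cord. The cells came from wild-type (WT), naive (untreated) BALB/cAnNRj mice of both sexes, at least 7 weeks old when experiments began. The DRG cells were sorted for live CD45+ cells, the spinal levels of these DRGs are not given in the sources used here, and cells of every mouse carried a hashtag antibody before all mice shared a single lane of the 10x Genomics 3′ v3 assay. The matrix held 2668 cells of 3 male mice (481, 772 and 1415 cells in males 1, 2 and 3), and 1073 cells of 3 female mice were taken from the larger matrix of all barcodes. The total of unique molecular identifiers (UMIs, single captured transcripts) ran from 4239463 to 13508078 per male mouse and from 2272347 to 2959158 per female mouse, and the median from 7236.5 to 9137 UMIs per cell, so the values of male 3 rest on the most cells and the deepest sequencing. No group was infected, injured or treated with an interferon, and the tissue was dissociated with enzymes at a warm temperature before the sort, so every value below is a level in dissociated cells of untreated mice.

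Interferons are secreted antiviral signals. Type I interferons bind the receptor of Ifnar1 and Ifnar2, whose kinases activate a transcription factor complex that holds STAT2 and IRF9 and binds a repeated GAAA element in the promoters of interferon-stimulated genes, many of whose products block viral RNA, viral proteins or viral entry. Tissue macrophages are known for keeping a low level of this program running without infection. The list spans the pathway by role. It holds transcription factors and RNA sensors (Irf7, Irf9, Stat2, Ifih1, Dhx58), the Ifit RNA-binding proteins and the oligoadenylate synthetases that switch on an RNase. The ubiquitin-like modifier Isg15 with its protease Usp18 and enzymes such as Rsad2 (viperin) and Cmpk2 are also listed. The rest are surface and membrane proteins (Bst2 or tetherin, Ifitm3, Ly6e), GTPases that attack pathogen vacuoles (Gbp2, Gbp3, Gbp7, Igtp, Irgm1), and nuclear or cytosolic genes such as those of the PYHIN, Slfn, Trim and Sp100 families.

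The shared element is visible in the promoters. Of the 49 genes, 39 matched by symbol to the RefSeq promoter table (build GRCm38.p6; 250 bases before and 50 after each transcription start), and 10 did not (Usp18, Oas2, Ifi27l2a, Dhx58, Parp9, Parp14, Rtp4, Zbp1, Ifi204 and Ly6e). The motif GAAANNGAAA, searched on both strands with overlapping matches allowed, lay in a promoter of 22 of the 39 matched genes (56.4%), against 3.99% of all 27025 genes in the table and 3.44% of all 32851 promoters. The 250 bases upstream of Isg15 and of Rsad2 are shown because these genes had some of the largest folds below. They are followed by windows of 30 bases around a match upstream of genes with large folds (Oas3, Ifit3, Ifit3b, Gbp2), intermediate folds (Irgm1, Bst2) and small folds (Oas1a, Gbp7). Every sequence reads 5′ to 3′ on the strand of the gene, and capitals mark matched bases, in the sense or the reverse orientation (TTTCNNTTTC).

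Isg15 (chr4:156200819-156201068, minus strand): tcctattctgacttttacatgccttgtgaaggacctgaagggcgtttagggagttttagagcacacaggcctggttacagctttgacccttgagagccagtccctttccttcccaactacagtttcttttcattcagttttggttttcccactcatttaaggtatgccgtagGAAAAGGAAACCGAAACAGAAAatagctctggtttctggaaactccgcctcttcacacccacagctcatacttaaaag
Rsad2 (chr12:26456453-26456702, minus strand): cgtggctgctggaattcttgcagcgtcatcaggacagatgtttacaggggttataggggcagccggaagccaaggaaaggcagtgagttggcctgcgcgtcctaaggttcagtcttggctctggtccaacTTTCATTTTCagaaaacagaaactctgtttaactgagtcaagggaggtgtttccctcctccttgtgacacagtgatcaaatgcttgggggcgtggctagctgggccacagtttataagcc
Oas3 (chr5:120777715-120777744, minus strand): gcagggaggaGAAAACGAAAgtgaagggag
Ifit3 (chr19:34583363-34583392, plus strand): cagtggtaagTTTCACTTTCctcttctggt
Ifit3b (chr19:34607759-34607788, plus strand): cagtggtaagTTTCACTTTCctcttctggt
Gbp2 (chr3:142620594-142620623, plus strand): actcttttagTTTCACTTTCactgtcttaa
Irgm1 (chr11:48871428-48871457, minus strand): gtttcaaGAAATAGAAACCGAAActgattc
Bst2 (chr8:71537580-71537609, minus strand): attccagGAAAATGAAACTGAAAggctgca
Oas1a (chr5:120907523-120907552, minus strand): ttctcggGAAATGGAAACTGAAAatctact
Gbp7 (chr3:142530273-142530302, plus strand): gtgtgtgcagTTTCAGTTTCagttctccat

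The capitals in Isg15 cover 3 overlapping matches in a run from 78 to 57 bases before the start (positions -78 to -57), and those in Bst2 cover 2 overlapping matches from -130 to -115. The windows of Ifit3 and Ifit3b carry the same bases, and reads that match both of these neighboring copies may be miscounted, so their separate values are uncertain. The same holds for Phf11b and Phf11d, for Ifi204 and Ifi209, and for the Gbp, Slfn and Oas families. Among the genes with a classed fold, a match was found in 7 of 13 matched genes at 10-fold or more in the high-response macrophages described below, in 7 of 14 at 4-fold to under 10-fold and in 7 of 11 under 4-fold. A match is a description of letters in this window and not a test of binding.

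Cells were grouped by genes outside the list. Macrophages (C1qa, C1qb and C1qc at 0.5% of UMIs or more) numbered 1442, neutrophils (S100a8 and S100a9 at 5% or more) 272, B cells (at least 4 UMIs of Cd79a and Cd79b) 161 and T cells (at least 2 UMIs of Cd3d, Cd3e and Cd3g) 76. Of the cells that met no rule, 152 met a monocyte gate, 96 a dendritic gate, 13 a plasmacytoid dendritic gate and 29 an NK gate, and 100 met none. Markers that the rules did not use followed these names, with Apoe at 37860 CPM (UMIs per 1000000 UMIs of the group) in macrophages, Ngp at 30586 CPM in neutrophils, Ms4a1 at 553 CPM in B cells and Trac at 353 CPM in T cells. Left out were 327 cells that met 2 or more rules, of which 283 met the neutrophil and the T cell rule. Those 283 cells held Cd3d at 435 CPM and Ngp at 44040 CPM, while Trac, Lck and Cd3e were at 0, and the main values of the neutrophils, which leave them out, are therefore also given with them (555 neutrophils).

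Macrophages, neutrophils and lymphocytes differed in how much of their transcriptome these genes took. In macrophages the 49 genes made up 0.448%, 0.461% and 0.655% of all UMIs in males 1, 2 and 3 (0.522% ± 0.116, SD, n = 3 mice). In neutrophils the share was 0.258%, 0.249% and 0.362% (0.290% ± 0.0630), in B cells 0.148%, 0.233% and 0.242% (0.208% ± 0.0516) and in T cells 0.142%, 0.363% and 0.220% (0.242% ± 0.112). With the 283 cells the neutrophils were at 0.233% ± 0.0415. Within each mouse the macrophages were above these 3 types, and their lowest mouse was above the highest mouse of each. The monocyte gate stood higher still, at 1.03%, 0.908% and 1.01% (0.984% ± 0.0663), above every macrophage value, and the 13 cells of the plasmacytoid dendritic gate reached 0.772% ± 0.188. The dendritic gate (0.371% ± 0.132) overlapped the macrophages and the neutrophils, and the NK gate was lowest at 0.161% ± 0.0581.

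**Figure D1:**
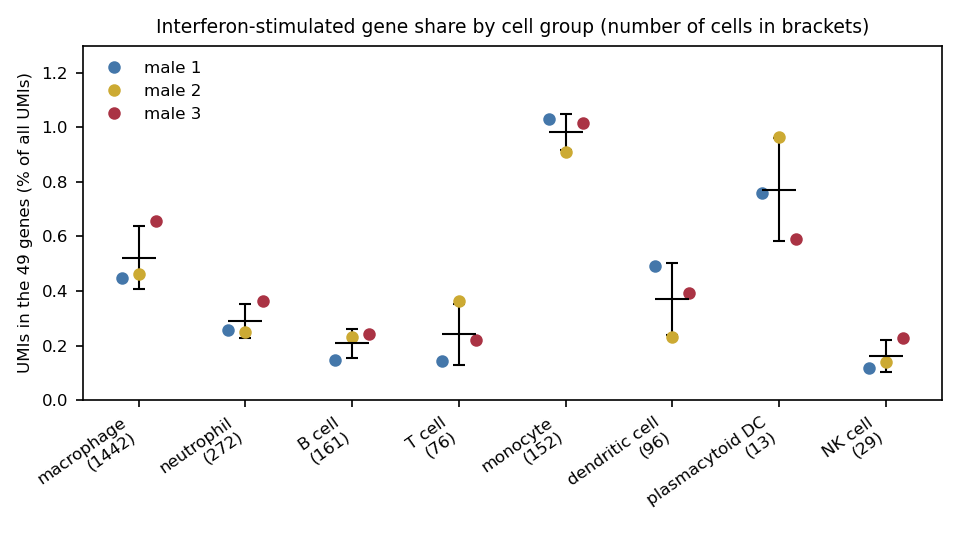
The vertical axis gives the UMIs of the 49 interferon-stimulated genes as a percent of all UMIs, for the gated cell groups of 3 male mice (points, 1 per mouse; horizontal bar, mean; whiskers, SD). The monocyte gate lies near 1%, macrophages between 0.448% and 0.655%, and B, T and NK cells lowest.

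Much of the distance between the cell groups came from 3 abundant genes. In macrophages, Ifi27l2a, a small protein of the ISG12 family, held 28.7% of the listed UMIs, Ifitm3, which blocks viruses from fusing with endosomes, 25.7%, and Bst2, which tethers budding viruses to the cell surface, 7.26%. Without these 3 genes the share was 0.191% ± 0.0620 in macrophages, 0.149% ± 0.0268 in neutrophils, 0.159% ± 0.0340 in B cells and 0.202% ± 0.108 in T cells. The mice of all these types then overlapped. Within each mouse the macrophages were still above the neutrophils and the B cells, and in males 1 and 3 they were above the T cells. With the 283 cells the neutrophils, at 0.0794% to 0.106%, lay below the macrophages, at 0.134% to 0.257%. The monocyte gate had the highest mean at 0.347% ± 0.0339 and overlapped T cells alone, since in male 2 it was at 0.310% and the 12 T cells at 0.326%, while the plasmacytoid dendritic gate was at 0.174% ± 0.0356.

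The abundant genes had separate patterns over cell groups. Ifitm3 stood at 1314, 1212 and 1632 CPM in the macrophages of males 1, 2 and 3, at 674, 625 and 838 CPM in neutrophils, at 39.4, 24.7 and 42.5 CPM in B cells and at 4663, 3842 and 3818 CPM in the monocyte gate. Ifi27l2a was spread more evenly, with 1548 ± 278 CPM in macrophages, 684 ± 298 in neutrophils, 423 ± 172 in B cells, 181 ± 132 in T cells and 2035 ± 212 in the monocyte gate. Bst2 was at 329, 278 and 504 CPM in macrophages and at 5395, 5554 and 3779 CPM in the plasmacytoid dendritic gate, a cell type for which it is a known surface marker, but at 6.13 ± 2.24 CPM in neutrophils. Free RNA in droplets can add to such levels, and its part was not measured here. For comparison, Apoe, a macrophage transcript, was found in neutrophils at 1.37%, in B cells at 1.68% and in T cells at 2.89% of its macrophage level. Bst2 in neutrophils was at 1.64%, Ifitm3 in B cells at 2.58% and Ifi27l2a in B cells at 25.9% of theirs. Apoe is a single gene, and Ifitm3 and Ifi27l2a were higher in the monocyte gate than in macrophages, so its percentages set no floor for them.

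**Figure D2:**
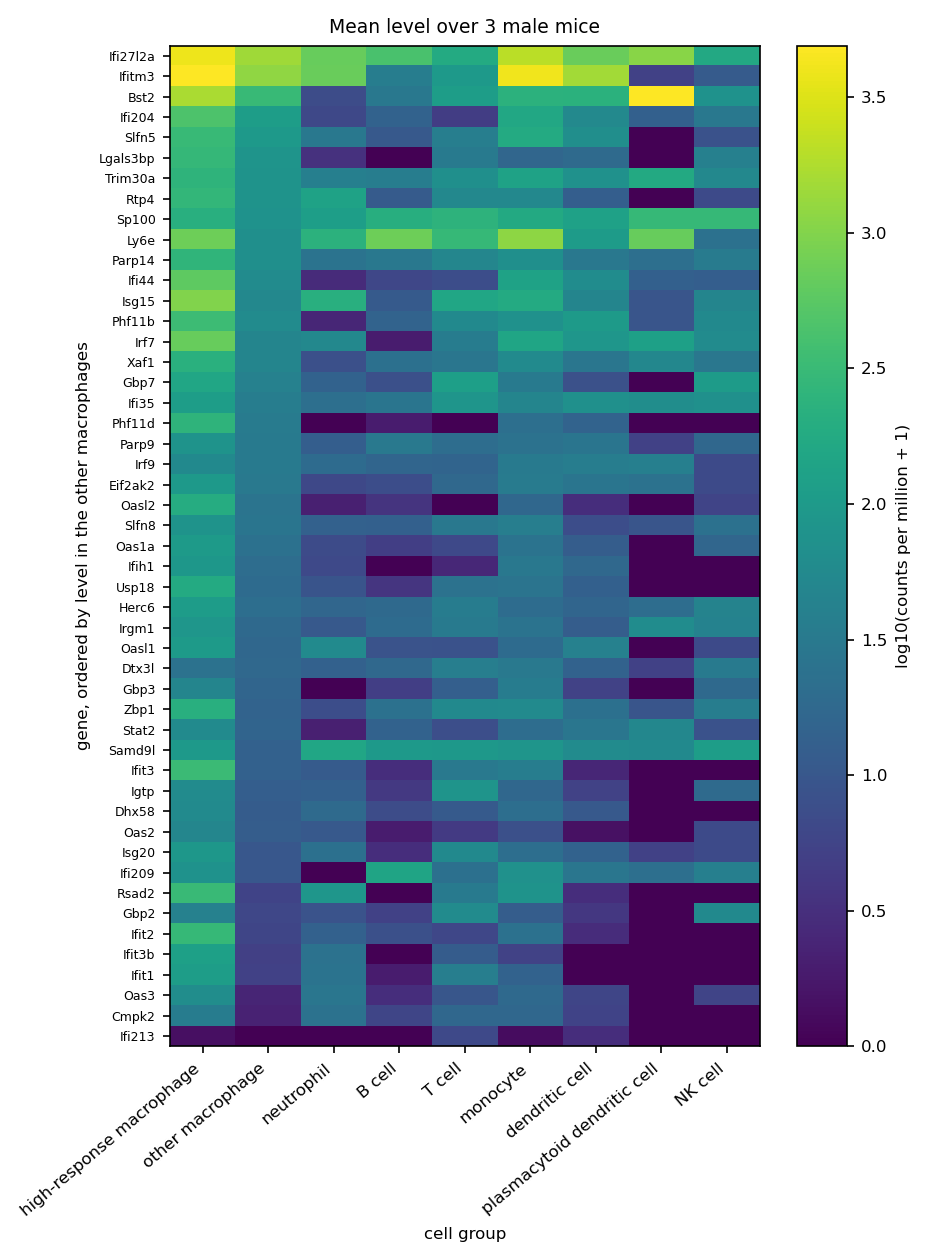
Rows are the 49 genes, ordered by their level in macrophages outside the high-response group, and columns are cell groups, and the color gives log10 of the mean CPM of 3 male mice plus 1. Ifi27l2a and Ifitm3 are bright in all myeloid columns, Bst2 is brightest in the plasmacytoid dendritic gate, and the Ifit genes and Rsad2 are brightest in the high-response macrophages.

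For the comparison of cell types, UMIs were summed per mouse and type and tested with edgeR over all 5513 genes that passed its filter on low counts. A gene can pass this filter through a single type in which it is high. Phf11d, Ifi204 and Ifi44 passed through macrophages alone, so the direction of their calls below was largely fixed by the filter. The same holds against B cells for Ifi209, which passed mainly through B cells, and against T cells for Igtp, which passed through T cells alone. It also holds against neutrophils for Rsad2 and Oasl1, which passed mainly through neutrophils. Lgals3bp and Phf11b passed mainly through macrophages, so their calls as higher there were largely fixed too. Without the high-response macrophages, Phf11d and Usp18 no longer passed. In macrophages against neutrophils, 29 of the 49 genes passed that filter, of which 13 were higher and 7 lower in macrophages (adjusted p under 0.05), where 32.3% of all genes tested were called higher and 27.9% lower. The median log2 difference was 0.77 over these 29 genes and 0.13 over all genes. Among those higher in macrophages were Bst2 (log2 difference 5.37 ± 0.34, SE, adjusted p = 8.66e-11) and Lgals3bp, a secreted glycoprotein, at 79.0, 76.5 and 116 CPM against 2.39, 3.55 and 1.09 CPM (5.17 ± 0.47, adjusted p = 4.39e-08). Phf11d was at 35.2, 35.2 and 78.1 CPM in macrophages and at 0 UMIs in neutrophils, at least 32.3-fold higher by the floor of 3 UMIs over the group. The DNA sensor family gene Ifi209 was also at 0 in neutrophils, at least 8.93-fold higher in macrophages. Phf11d and Ifi209 stayed at 0 with the 283 cells added, and Phf11b differed by 4.96 ± 0.60. Lgals3bp and Phf11b each had 3 UMIs in all neutrophils, so the sizes of their differences are uncertain.

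The 7 genes lower in macrophages included antiviral effectors. Samd9l, which restricts poxviruses and blocks translation, stood at 14.0, 14.2 and 25.7 CPM in macrophages and 165, 124 and 173 CPM in neutrophils (log2 difference -3.42 ± 0.26, adjusted p = 1.25e-09). Rsad2, which makes a chain-terminating nucleotide, was at 6.07, 14.7 and 51.7 CPM against 64.5, 99.5 and 94.1 CPM (-2.01 ± 0.49, adjusted p = 0.00178). Neutrophils of each mouse were above the macrophages of every mouse for both genes. Ly6e differed by -1.64 ± 0.28 and Oasl1, a regulator of Irf7 translation, by -1.62 ± 0.30, both without overlap of the groups. Rsad2 and Oasl1 passed the filter mainly through neutrophils, so the direction of their calls was largely fixed. Isg15 was at 43.7, 92.6 and 200.01 CPM in macrophages and 151, 195 and 294 CPM in neutrophils, where the groups overlapped (-1.32 ± 0.41, adjusted p = 0.00905). With the 283 neutrophils and 34 macrophages that also met the T cell rule kept, 38 members passed the filter and 25 were higher and 4 lower, and the calls of Isg15 (adjusted p = 0.354), Rsad2 (adjusted p = 0.0774) and Rtp4 were lost. The share of all genes called in that setting is not given. Isg15 was also not called by DESeq2 (adjusted p = 0.0621) or with scaling to total UMIs (adjusted p = 0.0528). Under that scaling, which uses no TMM factors, the split was 20 higher and 4 lower, where 3591 of all 5513 genes were called, and the median log2 difference of all genes moved by 0.38.

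Against B cells, 24 of the same 29 genes were higher and 4 lower in macrophages, where 30.5% and 27.5% of all genes were called, with a median log2 difference of 2.66 over the 29 genes and 0 over all genes. Ifitm3 differed by 5.79 ± 0.37 (adjusted p = 1.27e-10). Irf7, the factor that amplifies type I interferon production, was at 57.7, 55.0 and 122 CPM in macrophages (6.43 ± 0.78, adjusted p = 8.63e-07). In B cells it had 1 UMI, in male 3 (2.66 CPM), so the size of that difference is uncertain. Lgals3bp and Rsad2 were at 0 UMIs in all 161 B cells, at least 26.3-fold and at least 9.25-fold higher in macrophages. Of the 454 UMIs of Rsad2 in macrophages, 391 lay in the high-response macrophages described below. The other macrophages were at 5.24 CPM, against a floor of 3.79 CPM in B cells, so no 9.25-fold difference is shown for them. The 4 genes lower in macrophages were Ifi209, Ly6e, Samd9l and Sp100. Ifi209 was at 5.47, 17.3 and 18.7 CPM against 110, 173 and 138 CPM in B cells (-2.56 ± 0.32, adjusted p = 2.48e-06), the reverse of its place against neutrophils. Ly6e was at 93.6, 66.3 and 134 CPM against 591, 729 and 948 CPM (-2.36 ± 0.28), and Samd9l differed by -1.71 ± 0.32. Sp100, a nuclear body protein, differed by -0.67 ± 0.25 (adjusted p = 0.0283), which was not called without replicate 2 (-0.45, adjusted p = 0.245) or replicate 3 (-0.70, adjusted p = 0.09), by DESeq2 (-0.65, adjusted p = 0.0636) or without the filter (-0.50, adjusted p = 0.0806). Scaling to total UMIs moved the median log2 difference of all genes by -0.58.

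Against T cells, 14 of the 29 genes were higher and 4 lower in macrophages, where 24.3% and 20.6% of all genes were called, with a median log2 difference of 1.20 over the 29 genes and -0.03 over all genes. Ifitm3 differed by 4.04 ± 0.34. Ifi204, a cytosolic DNA sensor, was at 94.2, 138 and 167 CPM in macrophages and had 2 UMIs in all T cells. Ifi44 was at 52.8, 89.4 and 125 CPM in macrophages and had 4 UMIs in T cells. Phf11d was at 0 UMIs in T cells, at least 8.73-fold higher in macrophages. Ifi204, Ifi44 and Phf11d passed the filter through macrophages alone, so the direction of their calls was largely fixed. The genes lower in macrophages were Igtp (6.07, 19.2 and 19.6 CPM against 48.4, 130.3 and 62.0 CPM), Samd9l, Ly6e and Sp100. Igtp passed the filter through T cells alone, so the direction of its call was largely fixed. Among 76 T cells each of these 4 calls was lost in at least 2 alternatives, all with the difference in the same direction. The log2 difference of Igtp was -1.61 ± 0.45, and it was -1.38 without replicate 2 (adjusted p = 0.0566) and -1.74 without replicate 3 (adjusted p = 0.0511). Samd9l (-1.49 ± 0.43) was at -0.89 without replicate 2 (adjusted p = 0.137) and -1.25 thinned to 2000 UMIs (adjusted p = 0.0921). Ly6e (-1.17 ± 0.32) was at -0.46 both without replicate 1 (adjusted p = 0.377) and thinned (adjusted p = 0.36). Sp100 (-0.96 ± 0.28) was at -0.73 without replicate 2 (adjusted p = 0.105), -0.70 without replicate 3 (adjusted p = 0.184) and -0.58 thinned (adjusted p = 0.201). The T cells of male 2, 12 cells, were the highest for Rsad2 (81.4 CPM, against 6.05 and 4.77 CPM) and Gbp2 (130.3 CPM, against 12.1 and 38.2 CPM). Scaling to total UMIs moved the median log2 difference of all genes by -0.44.

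By the mean level over 3 mice, macrophages held the highest value of the 4 rule-gated types for 25 genes, T cells for 13, neutrophils for 9 and B cells for 2. With the other gates included, the monocyte gate was highest for 15 genes, macrophages for 9, neutrophils and T cells for 8 each, plasmacytoid dendritic cells for 5, NK cells for 2 and B cells and dendritic cells for 1 each. With the 283 cells neutrophils were highest for 6 of the genes among 4 types and for 3 among all. Macrophages kept the top place for Usp18, Phf11d, Oasl2, Oas1a, Oas2, Parp9, Parp14, Eif2ak2 and Lgals3bp. These are orders of means with no floor on counts, and were not tested between all neighbors. For T cells they take in Ifi213 with 1 UMI and Slfn8 at 28.90 CPM, against 28.85 CPM in macrophages. The 12 T cells of male 2 were the highest of the 3 mice for Ifit1, Isg20, Dtx3l and Zbp1. In the plasmacytoid dendritic gate Stat2 had 8 UMIs and Irf9 had 5. The same orders over all genes are not given. The types also differed in depth, with a median of 8581.5 UMIs per macrophage and 3635.5, 3410 and 4757.5 UMIs per neutrophil, B and T cell.

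Macrophages of the DRG fall into major subsets that carry Fcrls or Ccr2, and these were gated by those genes (561 cells with at least 3 UMIs of Fcrls and none of Ccr2, and 268 with Ccr2 and at most 1 UMI of Fcrls). Of 45 genes that passed the filter, 0 were higher and 4 lower in the Fcrls gate by edgeR, where 3.82% of all genes were called higher and 5.77% lower. At an unadjusted p under 0.05, 2 of the 45 were higher and 10 lower, and DESeq2 called 0 higher and 3 lower. The shares of all genes at the unadjusted threshold and by DESeq2 are not given, so these counts are not set against them. Phf11b stood at 51.4, 45.5 and 81.0 CPM in the Fcrls gate and 135, 106 and 162 CPM in the Ccr2 gate (log2 difference -1.28 ± 0.20, adjusted p = 4.23e-04). Ifitm3 was at 1038, 1136 and 1413 CPM against 1732, 1543 and 2123 CPM (-0.73 ± 0.13, adjusted p = 9.52e-04), and neither gene's groups overlapped. Ifi27l2a differed by -0.56 ± 0.14 (adjusted p = 0.0106) and Isg20, an RNA exonuclease, by -1.28 ± 0.39 (adjusted p = 0.0484), both with overlapping groups. Ifi27l2a was not called without replicate 1 (adjusted p = 0.22), without the high-response macrophages (adjusted p = 0.0527) or with total scaling, and Isg20 was not called without replicate 1 (adjusted p = 0.091) or replicate 2 (adjusted p = 0.0753), by DESeq2 (adjusted p = 0.244) or with total scaling (adjusted p = 0.0903). With the mouse as a block, 10 genes were called, 9 lower (Gbp3, Isg15, Irf7, Phf11d and Ifi35 besides the 4) and Rsad2 higher (0.80 ± 0.25, adjusted p = 0.0305). The share of all genes called with the block is not given. High-response cells were found in both gates, 33 of 561 (5.88%) and 28 of 268 (10.4%), with 1.45%, 2.80% and 9.35% of the Fcrls gate against 5.56%, 4.35% and 15.7% of the Ccr2 gate in males 1, 2 and 3.

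High-response macrophages were the top 7% of the 1442 male macrophages by the share of UMIs in the 49 genes, a group that the genes themselves chose and whose existence is therefore no result. The threshold was 1.17% of UMIs. The last cell inside held 1.19% and the first outside 1.17%, the highest cell held 5.99%, the median cell 0.410%, and 48 macrophages lay within 10% of the threshold, so the group is a range of a continuous share. The 101 cells were spread unevenly over mice, with 4 of 182 macrophages in male 1 (2.20%, exact 95% binomial interval 0.602% to 5.53%), 14 of 511 in male 2 (2.74%, 1.51% to 4.55%) and 83 of 749 in male 3 (11.1%, 8.92% to 13.6%). The interval of male 3 lay above the others, and male 3 supplied most of the group. Its macrophages were also deeper, with a median of 9558 UMIs against 8940.5 and 7605, and after thinning every cell to 2000 UMIs the counts were 5, 15 and 82. The 101 cells had a median of 9396 UMIs and the other 1341 macrophages 8554. Ranked without Ifi27l2a, Ifitm3 and Bst2, the top 101 cells came to 6, 26 and 69 per mouse and shared 74 cells (73.3%) with the group.

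The same threshold in other cells was passed by 53 of 152 cells of the monocyte gate (34.9%, 27.3% to 43.0%), 21 of 272 neutrophils (7.72%), 5 of 96 cells of the dendritic gate (5.21%) and 2 of 76 T cells (2.63%). With the 283 cells it was passed by 23 of 555 neutrophils (4.14%, 2.64% to 6.15%). It was passed by 0 of 161 B cells, of which 3 cells would be 1.86%, and the exact interval reaches 2.27%. Thinned to 2000 UMIs, with a threshold of 1.25%, the shares were 7.22% in macrophages, 30.4% in the monocyte gate, 6.22% in neutrophils (3.24% with the 283 cells) and 0.662% in B cells, after 30 macrophages, 4 cells of the monocyte gate, 31 neutrophils and 10 B cells under that depth were left out. In the female mice, whose cells had no part in setting the threshold, 5 of 205 (2.44%), 7 of 172 (4.07%) and 7 of 220 macrophages (3.18%) passed it. Each of these shares lay above that of male 1 and below that of male 3. The mean was 5.34% ± 4.98 in males and 3.23% ± 0.816 in females (n = 3 each), a difference of -2.11 points (female minus male) within the spread of the males, which without male 3 was 0.761 points in the other direction.

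**Figure D3:**
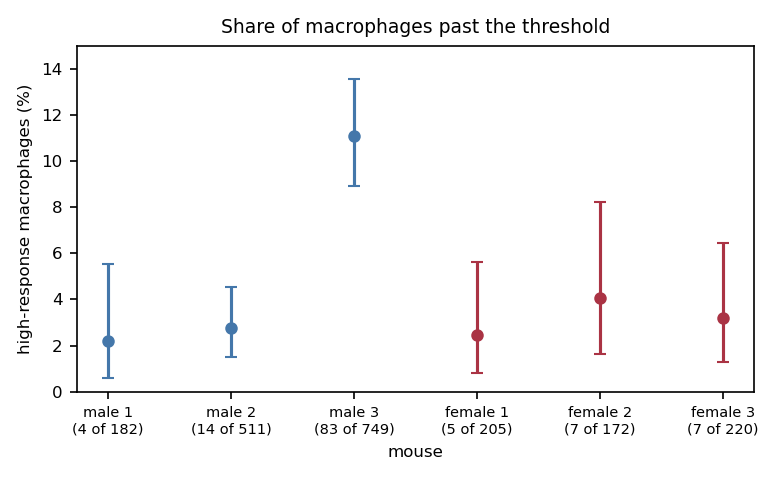
The vertical axis gives the percent of macrophages past the threshold of 1.17% of UMIs in the 49 genes, for each of 3 male (blue) and 3 female (red) mice, and whiskers are exact 95% binomial intervals, which cover counting error only. Male 3 stands at 11.1% and the other mice between 2.20% and 4.07%.

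To describe each gene without its own part in choosing the cells, macrophages were ranked anew without that gene, and its level was taken in the top 7% and in the rest. These values are descriptions with no test. Of 48 genes with at least 10 UMIs in macrophages (Ifi213 had 1), 42 were higher in the high-response cells of all 3 male mice, 32 were at least 4-fold higher over the pooled mice, and 18 were at least 4-fold higher in each mouse. The median fold was 5.52, from 1.47 in Irf9 to 80.3 in Rsad2. The 4 high-response cells of male 1 held 38259 UMIs, so a single UMI there is 26.1 CPM, and the 5 genes at 0 in them (Cmpk2, Gbp2, Ifi209, Igtp and Dtx3l) were not detectable below 78.4 CPM (3 UMIs). Of the 18 genes, Ifit1 (26.1 CPM), Usp18 and Dhx58 (52.3 CPM each) were also under that level in male 1. Their folds in that mouse are therefore uncertain. In males 2 and 3, 27 genes were at least 4-fold higher.

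The largest folds belonged to genes that were nearly silent in the other macrophages. Rsad2 stood at 131, 386 and 440 CPM in the high-response cells of males 1, 2 and 3 and at 3.11, 3.52 and 6.69 CPM in the others (pooled fold 80.3). Ifit2 was at 131, 422 and 346 CPM against 3.73, 7.31 and 3.87 CPM (70.6). In every mouse both genes were at a few CPM outside the group and above 100 CPM within it. Ifit1, which binds viral RNA that lacks host cap marks, was at 26.1, 126 and 185 CPM against 3.11, 5.42 and 4.02 CPM (39.6), Ifit3 at 78.4, 395 and 499 CPM against 10.6, 15.4 and 12.5 CPM (35.7) and Ifit3b at 36.2-fold. All 4 Ifit genes passed 4-fold in each mouse, with a median of 37.9, although the value of Ifit1 in male 1 is a single UMI. Oas3, which makes the second messenger of RNase L, was at 78.4, 44.9 and 64.1 CPM against 1.87, 0.813 and 1.64 CPM (44.1), and Cmpk2, a nucleotide kinase beside Rsad2 in the genome, at 0, 35.9 and 68.0 CPM against 1.24, 1.35 and 1.19 CPM (49.2).

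The effectors around Isg15 followed. Isg15 was at 366, 1194 and 1367 CPM against 36.1, 59.3 and 61.6 CPM (22.7), Zbp1, a sensor of Z-form nucleic acids, at 183, 242 and 208 CPM against 9.95, 16.5 and 15.5 CPM (14.0), and Usp18, the protease that removes Isg15 and damps the receptor, at 52.3, 197 and 282 CPM against 8.71, 27.1 and 19.5 CPM (12.9). In the group of 11 ubiquitin-like and antiviral effectors the median fold was 12.9, and 6 passed 4-fold in each mouse. Among 6 transcription factors and RNA sensors, Irf7 reached 11.7-fold and Dhx58 5.23-fold with 4-fold in each mouse, whereas Ifih1 (MDA5) was at 5.76-fold, Ifi35 at 4.39-fold, Stat2 at 3.77-fold and Irf9 at 1.47-fold. Irf9 stood at 52.3, 71.8 and 43.6 CPM against 24.2, 35.5 and 32.4 CPM. Irf9, the DNA-binding part of the interferon-activated factor, thus had the smallest fold of the 48 genes.

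The abundant genes had modest folds. Ifi27l2a was at 6186, 2038 and 3546 CPM against 1381, 1263 and 1669 CPM (2.26) and Ifitm3 at 6508, 3747 and 4391 CPM against 1191, 1127 and 1314 CPM (3.54), and Bst2 reached 4.37-fold. The genes next in level in the other macrophages, Ifi204, Slfn5, Lgals3bp, Trim30a and Rtp4, had folds from 3.35 to 5.11. As a result Ifi27l2a, Ifitm3 and Bst2 made up 66.8% of the listed UMIs in the other macrophages and 47.5% in the high-response cells. The GTPases were mixed, with Gbp2 at 15.3-fold, Igtp at 6.14-fold, Irgm1 at 5.28-fold, Gbp3 at 4.07-fold and Gbp7 at 2.99-fold, and none passed 4-fold in each mouse. The partners Parp9 and Dtx3l, which act as a complex in the DNA damage response, stood at 3.41-fold and 2.82-fold, and Parp14 at 3.78-fold. Other small folds were those of Sp100 (3.40), Slfn8 (3.36) and Oas2 (2.89), and all of these genes were higher in male 2 and male 3.

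**Figure D4:**
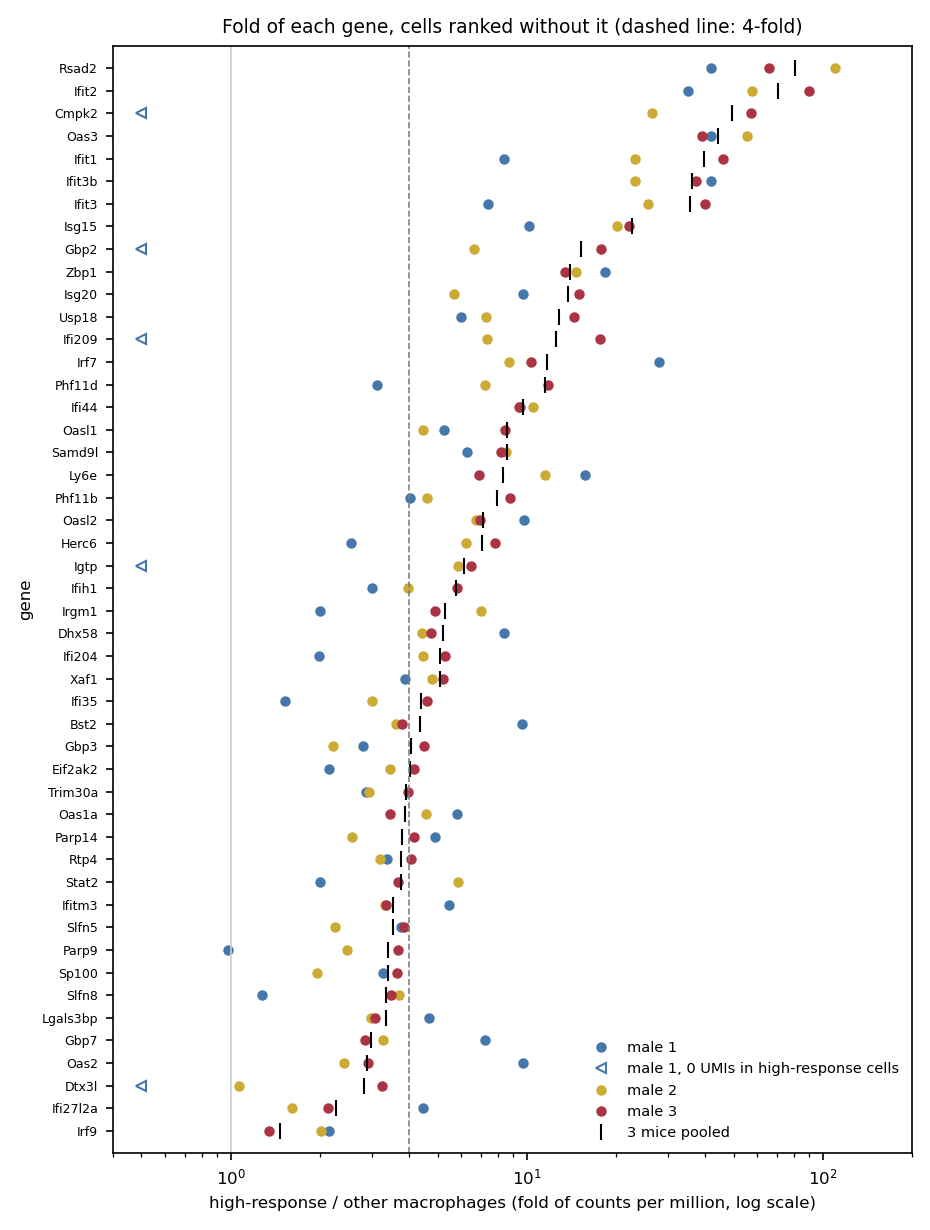
The horizontal axis (log scale) gives the fold of CPM in high-response over other macrophages for 48 genes, each in cells ranked without it. The points are males 1, 2 and 3, bars the pooled mice, open triangles 0 UMIs in the high-response cells of male 1, and the dashed line 4-fold. Folds run from 1.47 (Irf9) to 80.3 (Rsad2), and the points of male 1, with 4 cells, scatter most.

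The high-response macrophages were next set beside all cells of each rule-gated type. The listed genes chose these macrophages but not the cells of the other types, so higher levels follow in part from the choice. Cells of other types past the threshold (7.72% of neutrophils and 34.9% of the monocyte gate) were not compared separately, so no trait is shown to be particular to macrophages. Of the 32 genes at least 4-fold above the other macrophages, 22 were also at least 4-fold above neutrophils, B cells and T cells. They included Phf11d (394 CPM, against 1.26 CPM in the next type), Oasl2 (190.5 against 2.53), Ifi44 (628 against 9.17), Ifit2 (346 against 8.68), Ifi204 (589 against 16.4), Ifit3 (469 against 16.1) and Usp18 (262 against 16.1). For 16 of the 22 the high-response level was also at least 4-fold above the monocyte gate, and the exceptions were Rsad2, Zbp1, Dhx58, Ifi204, Gbp3 and Eif2ak2. The other 10 were less than 4-fold above at least 1 of these types. Samd9l was at 116 CPM in the high-response cells and 162 CPM in neutrophils, Ly6e at 598 CPM and 789 CPM in B cells, Ifi209 at 114 CPM and 136 CPM in B cells, and Igtp at 79.6 CPM and 66.5 CPM in T cells. Oas3, Cmpk2 and Oasl1 were 2.14-fold, 2.20-fold and 2.66-fold above neutrophils, and Gbp2, Ifi35 and Irgm1 were 1.88-fold, 2.91-fold and 3.64-fold above T cells. With the 283 cells among the neutrophils the 22 genes became 23, as Oasl1 was then 5.25-fold above neutrophils. Ly6e was highest of all in the monocyte gate (1236 CPM).

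In the females, whose 19 high-response cells were found with the male threshold, 27 of 48 classed genes were at least 4-fold higher over the pooled mice, 24 of them in males too, and 8 in each of 3 mice, with a median of 4.85. All 10 genes with the largest male folds passed 4-fold. Rsad2 was at 52.7, 763 and 265 CPM against 6.36, 0.833 and 1.28 CPM in females 1, 2 and 3 (131-fold), Ifit3 at 31.2-fold and Isg15 at 14.3-fold, and Irf9 was again small at 1.94-fold. Between the macrophages of both sexes as a whole, edgeR called 0 of 46 genes that passed the filter (0.0867% of all 8070 genes were called), and DESeq2 called 0. At an unadjusted p under 0.05, 8 genes were lower in females and 0 higher, and without male 3 the number was 3. Without the filter 8 genes were called lower in females, among them Ifit2 (-1.74 ± 0.26) and Isg15 (-0.59 ± 0.13). The shares of all genes at the unadjusted threshold and without the filter are not given.

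Genes outside the list had no part in choosing the cells and were tested between high-response and other macrophages. Genes that vary together with the listed ones follow that choice, so their calls are no independent support for the group. Some, such as Slfn1 and Phf11a, also belong to families of listed genes, in which reads that match several members may be miscounted. Of 7224 such genes, 162 (2.24%) were higher and 9 (0.125%) lower by edgeR, 121 of the first and 7 of the second in the same direction in 3 of 3 mice. In the 4 high-response cells of male 1 a single UMI is 26.1 CPM. For genes of low level, 1 UMI there counts as higher and 0 UMIs as lower, so their agreement in 3 of 3 mice says little. A gene can also pass the filter on low counts through a single group, which largely fixes the direction of its call. Slfn1, Mx1 and Tnfsf10, named below, passed through the high-response cells alone, and Phf11a passed mainly through them. The counts of genes called here and in the lists include such genes, and how many was not counted. Of other interferon-regulated genes, a list chosen with knowledge of earlier results, 48 of 62 tested were higher and 0 lower, with a median log2 difference of 1.76 against -0.05 over all genes. Mx1, an antiviral dynamin-like GTPase, differed by 4.56 ± 0.35 on the log2 scale (± SE, as for the values after it) and Slfn1, a growth regulator of lymphocytes, by 5.76 ± 0.39, the largest difference among the 121 genes called higher in 3 of 3 mice. Ifi44l (2.58 ± 0.19), Ifi47 (3.23 ± 0.20), Phf11a (3.97 ± 0.31) and Ms4a4c (3.33 ± 0.19) were called under every alternative that tested them, as were Mx1 and Slfn1. In the 4 high-response cells of male 1, Mx1, Slfn1 and Phf11a each had 1 UMI, so that mouse says little about them. The death ligand Tnfsf10 (TRAIL) was at 78.4, 35.9 and 32.1 CPM against 2.49, 0.813 and 1.49 CPM (4.63 ± 0.50). The chemokine Cxcl10 was at 0, 1886 and 1221 CPM against 56.6, 101 and 62.3 CPM (4.01 ± 0.34, adjusted p = 1.80e-12), with 0 UMIs in the 4 cells of male 1, and was not called by DESeq2 (3.87 ± 1.59, adjusted p = 0.512).

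Some antigen presentation genes and few receptors were called. Of 20 genes of class I presentation and the immunoproteasome, 10 were higher (median log2 difference 0.62), among them the peptide transporter Tap1 (2.02 ± 0.25) and the proteasome activator Psme1 (0.97 ± 0.17). Without male 3 Psme1 alone of 19 was called and Tap1 was not (1.60 ± 0.60, adjusted p = 0.323), and thinned to 2000 UMIs 5 of 15 were. Of 22 receptor and signalling genes, 1 was called higher and 0 lower. Of 22 sensors that act upstream of interferon, 6 were higher, with Ddx58 (RIG-I) at 157, 108 and 92.3 CPM against 17.4, 23.02 and 20.5 CPM (2.29 ± 0.24, adjusted p = 1.29e-09), Samhd1 (1.58 ± 0.17), Ifi203 (1.29 ± 0.19), Tlr3, Adar and Trim25. By DESeq2 3 of the 22 were called, without Tlr3 (adjusted p = 1), Adar (adjusted p = 0.146) and Trim25 (adjusted p = 0.101), and with the top 10% of macrophages 3 were, again without these genes. Trim25 was lost in 5 alternatives. The subset genes were called in neither direction, with 0 of 15 CD163+ and 0 of 12 CD163- macrophage genes by edgeR and by DESeq2, and 0 of 12 immediate early genes. At an unadjusted p under 0.05, 1 CD163+ gene was higher and 4 were lower, 2 CD163- genes were lower, and 1 immediate early gene was lower. The share of all genes at that threshold is not given. Under alternatives some were called lower. S100a4, a CD163- gene, was called with the mouse as a block (-1.61, adjusted p = 0.0307), without the filter, with total scaling, without replicate 2 and, with Adgre5, when cells were ranked without the 3 most abundant members. Of the CD163+ genes, Pf4 was called when thinned (-0.67, adjusted p = 0.045) and, with Cd163, without replicate 2. The summed level of the 15 CD163+ genes was 8286, 10201 and 8213 CPM in the high-response cells and 10588, 11584 and 10902 CPM in the others, lower in each mouse and without overlap. Immediate early genes, which enzymatic digestion is known to induce, summed to 13487 to 20850 CPM and 13130 to 20922 CPM. The 7 genes lower in 3 of 3 mice (Ptpn7, Srxn1, Gpr84, Cenpa, Lrrc58, Ptgs1 and Ifi27) were each lost under at least 3 alternatives. Ptpn7, Srxn1, Gpr84, Cenpa and Lrrc58 had 0 UMIs in the high-response cells of male 1, so that mouse says little about them. Srxn1 and Gpr84 passed the filter through the other macrophages alone, so the direction of their calls was largely fixed. Without male 3 the totals came to 27 higher and 3 lower, 25 of them shared with the 171, and 13 of 52 other interferon-regulated genes were called.

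**Figure D5:**
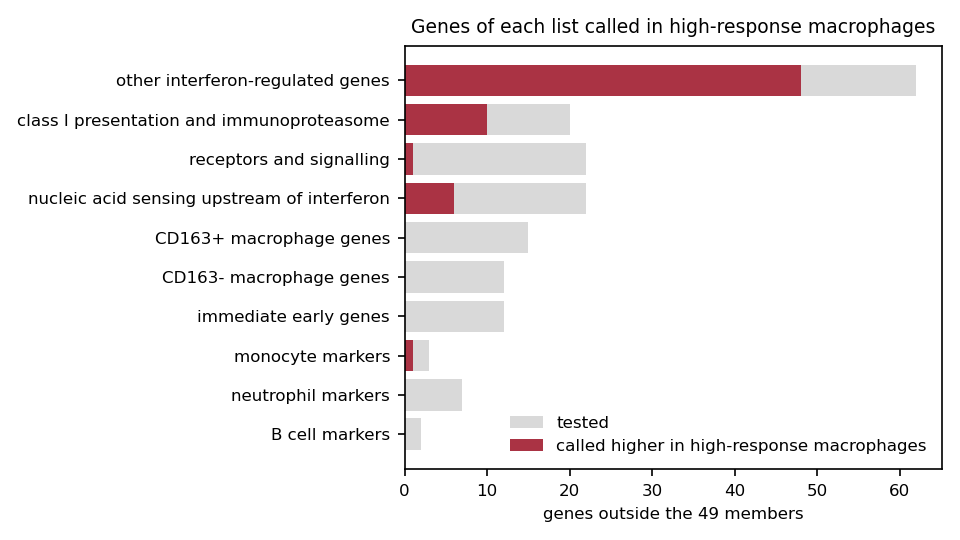
Bars count the genes of each list outside the 49 members that were tested (gray) and that edgeR called higher in high-response than in other macrophages (red). Some genes passed the filter on low counts through the high-response cells alone. Called were 48 of 62 other interferon-regulated genes, 10 of 20 presentation genes, 6 of 22 sensors, 1 of 22 receptor and signalling genes, and 0 of the CD163+, CD163- and immediate early genes.

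Markers of other cell types were compared in the same cells. Summed over 10 neutrophil markers the level was 836 to 1113 CPM in the high-response cells of the 3 males and 874 to 1026 CPM in the others, and over 8 B cell markers 299 to 368 CPM and 313 to 332 CPM. Over 8 T cell markers it was 0 to 7.69 CPM and 7.58 to 9.48 CPM. In the 101 high-response cells Trac, Trbc2, Cd79a and Ms4a1 were at 0 UMIs, where 3 UMIs would be 3.23 CPM and each was under that level in the other macrophages, while Cd3d had 2 UMIs (2.15 CPM against 0.998 CPM), Cd3e 3 and Lck 1. Over 7 monocyte markers the sum was 260 to 473 CPM against 59.1 to 62.8 CPM, most of it Ms4a4c, which is itself interferon-regulated and the only one of 3 tested that was called. Plac8 was at 12.9 CPM against 3.83 CPM, Vcan at 2.15 CPM (2 UMIs) against 0.249 CPM, Ly6c2 at 2.15 CPM against 2.08 CPM and Chil3 at 6.46 CPM against 7.32 CPM. The part of a few monocyte transcripts in the results was not tested.

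Transcripts of the interferons themselves were scarce. Of 20 interferon ligand genes, 2 had any UMI in the 2668 male cells, where 3 UMIs correspond to 0.128 CPM. Ifng, the type II interferon of lymphocytes, had 71 UMIs, 36 in T cells and 35 in the NK gate, and Ifnk had 2 UMIs, both in macrophages. Ifnb1 had 0 UMIs in male cells and 2 in female cells, and the Ifna genes listed had 0 in both sexes. Neurons, glia and vessel cells lack CD45 and were outside the sort, so ligands made there were not measured.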

How the data were processed

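The authors deposited raw UMI counts per gene and cell and raw hashtag counts, made with Cell Ranger 3.1.0 on mm10 per the labels and the study's methods; antisense and overlapping genes follow their counting, which was not changed. The larger matrix of 4395 barcodes was reduced by the study's limits (between 200 and 5000 genes per barcode and less than 5% of UMIs from mitochondria), and hashtags were assigned by HTODemux (quantile 0.99, Seurat 5.3.0, R 4.3.3). This left 2668 male cells, the same 2668 barcodes as the deposited matrix, with 0 differing entries, and 1073 female cells. It removed 269 doublets between mice and 101 negatives. Doublets within a mouse were not called. Sex is as the hashtag descriptions give it, and each hashtag was taken as a mouse.

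The 49 genes, the cell rules and all gene lists were chosen with earlier results of these data known. UMIs were summed per mouse and cell group and tested with edgeR 4.0.16 (TMM, filterByExpr, quasi-likelihood, Benjamini-Hochberg over all genes tested, threshold 0.05), with DESeq2 1.42.0 as an alternative. Cell types shared 1 fit of 12 sums. CPM in the text are per total UMIs of the sum, whereas log2 differences are TMM-scaled. The scripts were tested on simulated counts. Intervals are exact binomial (Clopper-Pearson, scipy 1.17.1) and cover counting error only, as do limits of 3 UMIs. Mice share a lane, so the lane is the same for all, whereas the batches in which each mouse was dissected, digested and sorted are not given.

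Sums of a mouse come from 1 animal, so the numbers pair them. The correlation of deviations from the group means was -0.0438 to 0.155 for sums of the same mouse over cell types, 0.00826 to 0.198 over the macrophage gates and 0.0251 to 0.0749 for high-response and other macrophages. For sums of different mice it was -0.200 to 0.141, -0.163 to 0.0606 and -0.0555 to -0.000912 in the same order. The study used the Venice algorithm and reports no test on sums per mouse. The main tests leave the pairing out, and the block is an alternative here. Alternatives further included no filter, thinning to 2000 UMIs, the top 5% or top 10% of macrophages, and leaving out each mouse. Keeping the cells that met the T cell rule, ranking without the 3 most abundant genes, and scaling to total UMIs were chosen after seeing the data. Genes named with values were the 10 largest and 8 smallest folds, the 8 highest in the other macrophages, up to 5 called genes per direction and comparison, and up to 12 called genes outside the list per direction. Others, such as Gbp2 in T cells, were named after their values were seen. Some genes that these rules take in are not reported here.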

Additional observations from a re-analysis of the deposited data

Results flagged for a closer look

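Herc6, an E3 ligase that attaches Isg15 to proteins in mice, was the only gene of the list whose high-response cells moved in opposite directions in the sexes. It was at 52.3, 134.7 and 144 CPM in the high-response macrophages of males 1, 2 and 3 and at 20.5, 21.7 and 18.5 CPM in the others, a pooled fold of 7.06. In each of 3 females it was at 0 in the high-response cells, a difference of -17.1 CPM from the 17.1 CPM (74 UMIs) of the other female macrophages. The 19 female cells are few, and 3 UMIs in them would be 22.3 CPM, so a level equal to that of the other macrophages was not detectable at this depth. The difference between the sexes was not tested.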

How the results depend on the processing

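Without the filter on low counts, 38 genes of the list were called between macrophages and neutrophils, 44 against B cells, 31 against T cells, 10 between the Fcrls and Ccr2 gates and 8 between the sexes. Against neutrophils all 49 genes were then tested, and 5387 of all 16045 genes were called. For the other counts in this paragraph the share of all genes called is not given, so they are not set against it. Thinned to 2000 UMIs, with fewer genes passing the filter, the calls were 10, 13 and 7 for the 3 types and 61 for genes outside the list in high-response macrophages, where DESeq2 called 95. With the replicate block 10 genes were called between the Fcrls and Ccr2 gates, and with scaling to total UMIs 2 were; the block moved no other count of calls by over 1.5 times. At 2-fold, 36 genes were higher in the high-response cells of each male. Leaving out 1 mouse gave 18 to 24 calls against neutrophils, 20 to 34 against B cells, 14 to 18 against T cells, 3 to 4 between the gates, 30 to 191 outside the list (lowest without male 3), 0 to 1 between the sexes (Ly6e, without male 2), 19 to 27 raised genes, and a sex difference in the share of high-response cells of -3.68 to 0.761 points. Tdrd7, outside the list, had a log2 difference of -0.036 without replicate 3, and the lowest and highest over mice left out were -0.036 and 1.40. The causes were not tested.

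Of 101 genes named with a call, 41 were called the same way under every alternative that tested them. Over 1002 such results, 848 kept their call, 153 lost it and 1 reversed, with 44 of the losses without replicate 3. The high-response group holds 4 cells in male 1 and 14 in male 2, which limits what those mice can show.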

Other observations

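Cells outside the named gates also held these transcripts. The 100 male cells that met no gate had 0.322% ± 0.0985 of their UMIs in the 49 genes (SD, n = 3 mice), and 11 of them (11%, exact 95% interval 5.62% to 18.8%) were past the threshold of the high-response macrophages. The 327 cells that met several rules had 0.238% ± 0.0737, and 6 of them (1.83%) were past it. Within the gates of few cells, 4 of 21 cells of the dendritic gate were past it in male 1, against 0 of 26 in male 2 and 1 of 49 in male 3.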
